A study of Mus musculus with 14 samples.

Results

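Transcripts of 9 chemokine genes (Ccl2, Ccl6, Ccl7, Ccl8, Ccl9, Ccl11, Cxcl12, Cxcl14 and Cxcl16) and of the chemokine receptor gene Cxcr6 were followed in mouse ventricles after pressure overload, with and without a gene therapy vector. These 10 genes are all in the table of 24972 genes, and all 10 were abundant enough to be among the 13211 genes tested. Ccl8, Ccl11 and Cxcr6 had been picked because they changed steeply with overload in these same libraries, so their differences between overload and sham are given as a description, with no test. The other 7 genes belong to the chemokine family and were listed with earlier results of these data known. A further 31 chemokine ligand genes in the table are not among the 10.

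Male C57BL/6N mice had transverse aortic constriction (TAC), a surgical narrowing of the aorta that loads the left ventricle with pressure, or a sham operation, at 9 to 10 weeks of age. After 2 weeks, 30 TAC mice with an ejection fraction of 40 to 60% and 10 sham mice with normal function were kept, and a tail vein injection of AAV2/9, an adeno-associated virus, at 1e12 viral genomes in 100 ul followed. The TAC+JP2NT group (4 libraries) had TAC and the virus carrying JP2NT, the amino-terminal end of junctophilin-2, a protein that ties the cell membrane of the heart muscle cell to its calcium store. The TAC+GFP group (4 libraries) had TAC and the control virus carrying green fluorescent protein. The Sham+JP2NT group (3 libraries) and the Sham+GFP group (3 libraries) had the sham operation with the same viruses, so every group carried virus and no group was left uninjected. Hearts were taken 8 weeks after surgery, 6 weeks after injection, and polyadenylated RNA of frozen ventricles was sequenced. The labels name neither the promoter that drives the vector nor the number of mice behind each library.

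Chemokines are small secreted proteins that bind receptors on the surface of leukocytes and other cells and direct their movement. CC chemokines such as CCL2 and CCL7 draw monocytes out of the blood through CCR2, and CCL11, called eotaxin, acts on eosinophils through CCR3. In the mouse CCL8 acts through CCR8, while CCL6 and CCL9 act through CCR1. CXCL12 holds CXCR4-bearing cells in tissue, CXCL14 is made by resting tissue and its signalling receptor is not settled, and CXCL16 is a membrane-bound chemokine whose only known signalling receptor is CXCR6, found mainly on T cells, natural killer T cells and other lymphocytes.

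Ccl2 (82035571 to 82037453), Ccl7 (82045712 to 82047525), Ccl11 (82057823 to 82062955) and Ccl8 (82115185 to 82116799) lie on the plus strand of chromosome 11 (mm10, GENCODE M21) within 81.2 kb. Ccl12, a further CCR2 ligand that is not one of the 10, lies in the same stretch between Ccl11 and Ccl8. Ccl9 (83572919 to 83578636) and Ccl6 (83587882 to 83593087) lie 9.2 kb apart on the minus strand of the same chromosome. Cxcl16 is on chromosome 11 (70453983 to 70459984, minus strand), Cxcl12 on chromosome 6 (117168535 to 117181367, plus strand) and Cxcl14 on chromosome 13 (56288643 to 56296551, minus strand). Cxcr6 (chromosome 9, 123806475 to 123811760, plus strand) lies inside the gene Fyco1, which is read from the opposite strand, and shares 0 exonic bases with it. Of the exonic bases of Cxcl16, 552 overlap exons of Zmynd15 on the opposite strand. The libraries keep strand, but the strand setting of the counting is not stated, so values of Fyco1 and Zmynd15 are given beside those of Cxcr6 and Cxcl16.

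The promoters of Ccl8 and Cxcr6, genes picked for higher values after TAC, are shown because they carry the steepest increases described here. RefSeq promoter windows (GRCm38.p6, the same assembly as mm10, 250 bases before to 50 after the start) were matched for 6 of the 10 genes: Ccl6, Ccl8, Ccl9, Cxcl12, Cxcl14 and Cxcr6. Both sequences read 5′ to 3′ on the plus strand, and capitals mark the 1 motif found in them, a TATA box core (TATAAA). The Ccl8 window is chr11:82114935-82115234 and the Cxcr6 window is chr9:123806227-123806526.
Ccl8: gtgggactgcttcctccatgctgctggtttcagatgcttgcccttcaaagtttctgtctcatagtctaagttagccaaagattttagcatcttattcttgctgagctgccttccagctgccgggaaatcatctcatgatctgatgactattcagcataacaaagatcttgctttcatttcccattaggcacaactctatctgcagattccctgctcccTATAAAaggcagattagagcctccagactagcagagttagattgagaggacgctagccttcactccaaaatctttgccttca
Cxcr6: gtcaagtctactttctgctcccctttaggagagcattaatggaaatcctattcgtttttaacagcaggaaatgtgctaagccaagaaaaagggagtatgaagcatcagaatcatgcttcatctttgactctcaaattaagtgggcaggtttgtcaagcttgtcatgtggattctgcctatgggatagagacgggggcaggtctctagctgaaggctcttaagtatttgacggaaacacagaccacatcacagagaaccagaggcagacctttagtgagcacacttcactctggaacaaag
The TATA box core of Ccl8 begins 32 bases before the start, and 13.6% of the 32851 promoter windows in the table hold TATAAA on either strand. The Cxcr6 window holds no TATAAA, and neither window holds TGANTCA (an AP-1 core, in 7.81% of all windows), TTCNNNGAA (a STAT core, in 8.3%) or the CCAAT box core (in 37.4%), searched on both strands. Among the other 4 windows, that of Ccl9 holds 3 matches to TATAAA, 2 of which overlap on opposite strands, and 1 to TGANTCA, that of Cxcl14 holds 1 match to TTCNNNGAA, and those of Ccl6 and Cxcl12 hold none of these letters.

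The deposited values are gene counts divided by scale factors, rescaled here so that all libraries are on the same scale. Estimated gene reads were 8650188 to 14460617 per library. The first 2 Sham+JP2NT libraries agreed almost to within counting noise (variance ratio 1.33, against 2.45 to 29.4 in the other 17 pairs within groups) and were averaged into 1 sample, so that 13 samples entered the fit. On the first principal component, which held 50.2% of the variance, 3 TAC+JP2NT libraries lay at 20.1 to 24.1 and replicate 4 apart from them at -5.56, TAC+GFP libraries at 32.1 to 42.9, and sham samples at -42 to -38.9. Heart muscle markers were abundant in every library, with 12 of 12 listed genes tested. Jph2, the gene that JP2NT derives from, averaged 6300 ± 321 (SD, n = 4) in TAC+JP2NT and 6129 ± 328 (n = 4) in TAC+GFP. In sham hearts it had 6915 and 7163 in Sham+JP2NT and 7661 to 8177 in Sham+GFP. Whether Jph2 took up reads of the vector insert is not known. In bulk tissue, fewer cells of a type and less RNA per cell cannot be told apart. The labels do not say that each library is a separate mouse, so the p-values measure the spread between these libraries, which may be technical. All tests are two-sided limma tests with Benjamini-Hochberg adjustment over 13211 genes, and a gene is called at an adjusted p under 0.05.

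The 10 genes covered a wide range of levels, compared here as rescaled value per kilobase of exon. Cxcl12 stood highest in every group, at 281 ± 16.6 per kb in TAC+JP2NT, 291 ± 107 in TAC+GFP (SD, n = 4 each), 424 ± 19.6 in Sham+JP2NT (n = 2), and 465 ± 17.3 (n = 3) in Sham+GFP. Cxcr6 stood lowest in 3 groups, at 13.1 ± 3.91 per kb in TAC+JP2NT, 1.83 ± 0.335 in Sham+JP2NT and 1.03 ± 0.879 in Sham+GFP. In TAC+GFP it had rank 7 of 10 at 51.7 ± 10.3 per kb, and the lowest place there belonged to Ccl11, at 1.77 ± 0.142 per kb. Ccl8 had rank 5 in TAC+JP2NT at 49.4 ± 14.4 per kb, rank 2 in TAC+GFP at 142 ± 86.8, and rank 9 in Sham+JP2NT at 17 ± 12.9 and in Sham+GFP at 16.5 ± 6.52.

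Of the 7 genes that were not picked for their response to TAC, 1 was called higher (Cxcl16) and 2 lower (Cxcl12 and Ccl6) in TAC+GFP against Sham+GFP, where 48.3% of all genes tested were called, 23.1% higher and 25.2% lower. In TAC+JP2NT against Sham+JP2NT none of the 7 was called higher and 1 was called lower (Cxcl12), against 32.2% of all genes, 15.4% higher and 16.8% lower. Neither total was a larger share than that of all genes. In TAC+JP2NT against TAC+GFP, Ccl11 was called higher and Cxcr6 lower, 2 of the 10, where 6.21% of all genes were called, 2.7% higher and 3.5% lower. Both of these were picked for the size of their change in TAC+GFP, and this comparison uses the same TAC+GFP libraries, so it is not independent of that choice. In Sham+JP2NT against Sham+GFP limma called none of the 10 and 0% of all genes, with 561 genes at an unadjusted p under 0.05. The interaction of surgery and vector, a test of whether the TAC difference depends on the vector, called none of the 7 and 0.0757% of all genes, 0.0378% higher and 0.0378% lower.

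**Figure D1:**
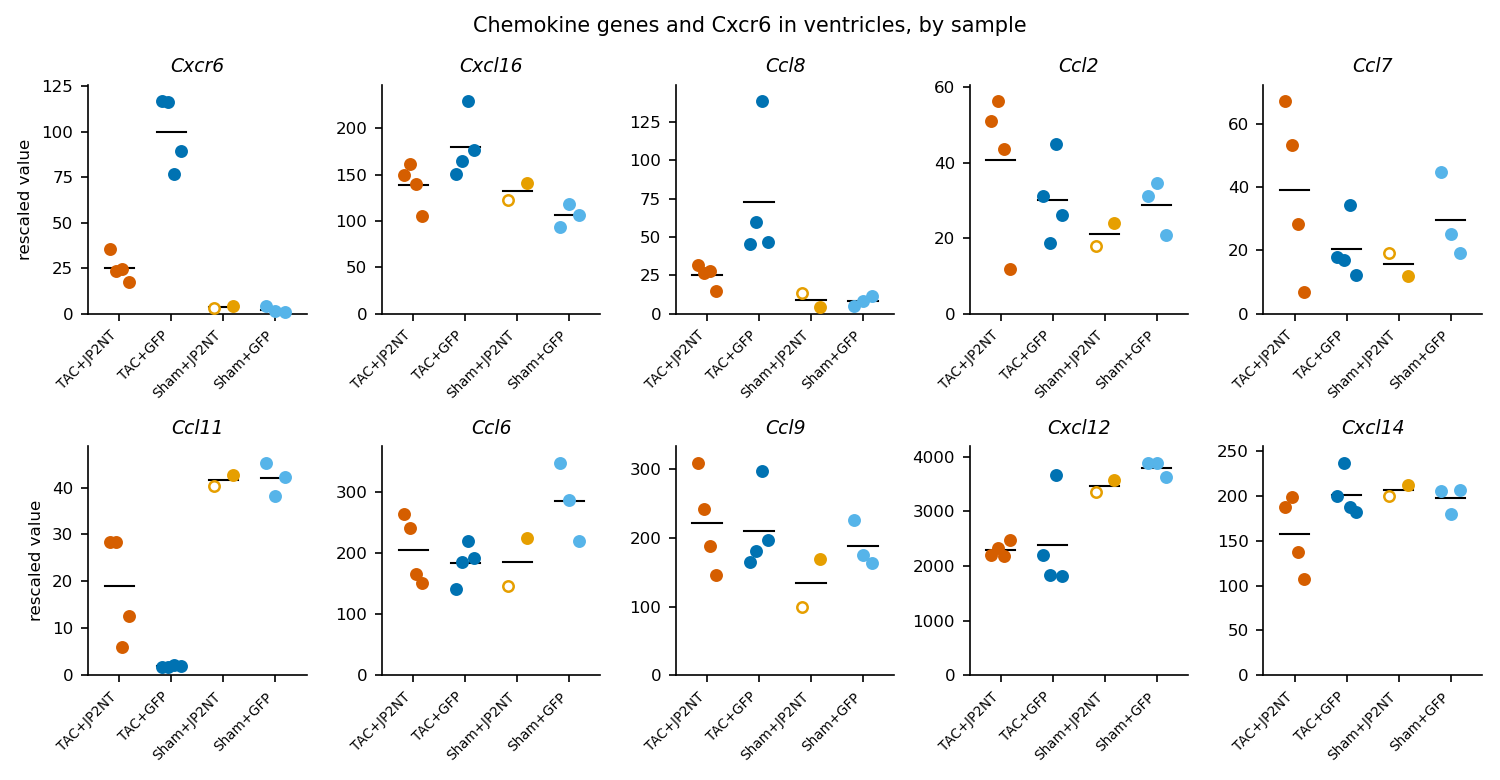
Rescaled values (linear axis from 0) of Cxcr6 and the 9 chemokine genes in each sample of the 4 groups, with a bar at the group mean; the open circle is the mean of Sham+JP2NT replicates 1 and 2. Cxcr6 lies between 77.0 and 117 in TAC+GFP and at 35.7 or below in every other group, while Ccl11 lies near 2 in all 4 TAC+GFP libraries and at 6.11 or above elsewhere.

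Cxcr6, the receptor gene, was highest in TAC+GFP, lower with JP2NT among TAC hearts, and near the limit of detection in sham hearts. Its values were 35.7, 23.4, 24.5 and 17.6 in TAC+JP2NT replicates 1 to 4 and 117, 116, 77.0 and 89.2 in TAC+GFP replicates 1 to 4. The sham libraries gave 4.98, 1.16 and 3.99 in Sham+JP2NT and 3.94, 1.21 and 0.8291 in Sham+GFP. Every TAC+GFP library was above every TAC+JP2NT library, and every TAC library was above every sham library. The sham values rest on 1 to 4 estimated reads per library.

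As a description of the values that chose it, Cxcr6 averaged 99.7 ± 19.9 (SD, n = 4) in TAC+GFP and 1.99 ± 1.70 (n = 3) in Sham+GFP. The ratio of summed reads, 425 against 6, was 50.9 (95% exact binomial interval 23.2 to 139, counting error only). In TAC+JP2NT it averaged 25.3 ± 7.55 (n = 4), against 3.53 ± 0.647 (n = 2) in Sham+JP2NT, and the ratio of summed reads, 114 against 8, was 7.73 (3.79 to 18.3). Between vectors in TAC hearts, Cxcr6 fell by 1.96 ± 0.318 on the log2 scale (SE; 95% interval -2.64 to -1.28), which is 3.89-fold lower with JP2NT (adjusted p = 0.00421). The call held in all 25 alternative settings, with adjusted p from 0.000664 to 0.0418. All of these fits reuse TAC+GFP libraries that chose the gene, so none is independent of that choice. In sham hearts the log2 difference between Sham+JP2NT and Sham+GFP was 0.73 (95% interval -0.14 to 1.61, adjusted p = 0.997), at a level of a few reads.

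Fyco1, the gene around Cxcr6, was lower after TAC. Its values were 3886 to 5242 in TAC+JP2NT, 3403 to 4727 in TAC+GFP, 5579 and 6290 in Sham+JP2NT and 4842 to 5600 in Sham+GFP. It fell by 0.46 on the log2 scale in TAC+GFP against Sham+GFP (adjusted p = 0.00394) and was 0.23 higher in TAC+JP2NT than in TAC+GFP (adjusted p = 0.204). No 31-base stretch of the Cxcr6 transcript occurs in a transcript of another gene.

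The sums of T cell markers overlapped between the groups, and those of NK cell markers overlapped between all groups but Sham+JP2NT and Sham+GFP. Of 16 T cell markers 13 were matched in the table and 3 were abundant enough to test, and none was called in TAC+GFP against Sham+GFP or in TAC+JP2NT against TAC+GFP. In TAC+JP2NT against Sham+JP2NT 1 of the 3 was called lower, Cd247, a signalling subunit of the T cell receptor complex, named here after its values were seen. It had 6.22 to 8.31 in TAC+JP2NT and 18.9 and 26.5 in Sham+JP2NT (log2 fold change -1.48, adjusted p = 0.0153). Over all genes, 16.8% were called lower in that comparison. The summed value of the T cell markers was 122 to 207 in TAC+JP2NT, 152 to 179 in TAC+GFP, 168 to 196 in Sham+JP2NT and 163 to 198 in Sham+GFP. Thy1 made up most of this sum in the GFP groups, with a mean of 100 in TAC+GFP and 122 in Sham+GFP. The sum therefore says little of the low markers. Cd3e, a subunit of the T cell receptor complex, had values of 0 to 2.81 in TAC+JP2NT, 2.05 to 4.49 in TAC+GFP, 0 to 1.77 in Sham+JP2NT and 3.01 to 4.81 in Sham+GFP. Its partner Cd3d had 1.97 to 3.50 in TAC+JP2NT, 1.998 to 10.2 in TAC+GFP, 1.33 to 3.005 in Sham+JP2NT and 0 to 1.69 in Sham+GFP. It did not overlap between TAC+GFP and Sham+GFP and was too low to test. Among the other matched markers, means were higher in TAC+GFP than in Sham+GFP for Cd3g, Cd8a, Cd8b1, Lck, Cd2, Cd5 and Il7r. They were lower for Cd3e, Cd247, Cd4, Cd6 and Thy1. Each of these genes, higher or lower, overlapped between the libraries of TAC+GFP and Sham+GFP. None of the 10 NK cell markers reached the abundance needed for a test, and their summed value was 6.87 to 27.7 in TAC+JP2NT, 16 to 31 in TAC+GFP, 23.9 to 29.8 in Sham+JP2NT and 8.06 to 18.5 in Sham+GFP. The part of T cells or NK cells in the Cxcr6 difference was not tested.

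**Figure D2:**
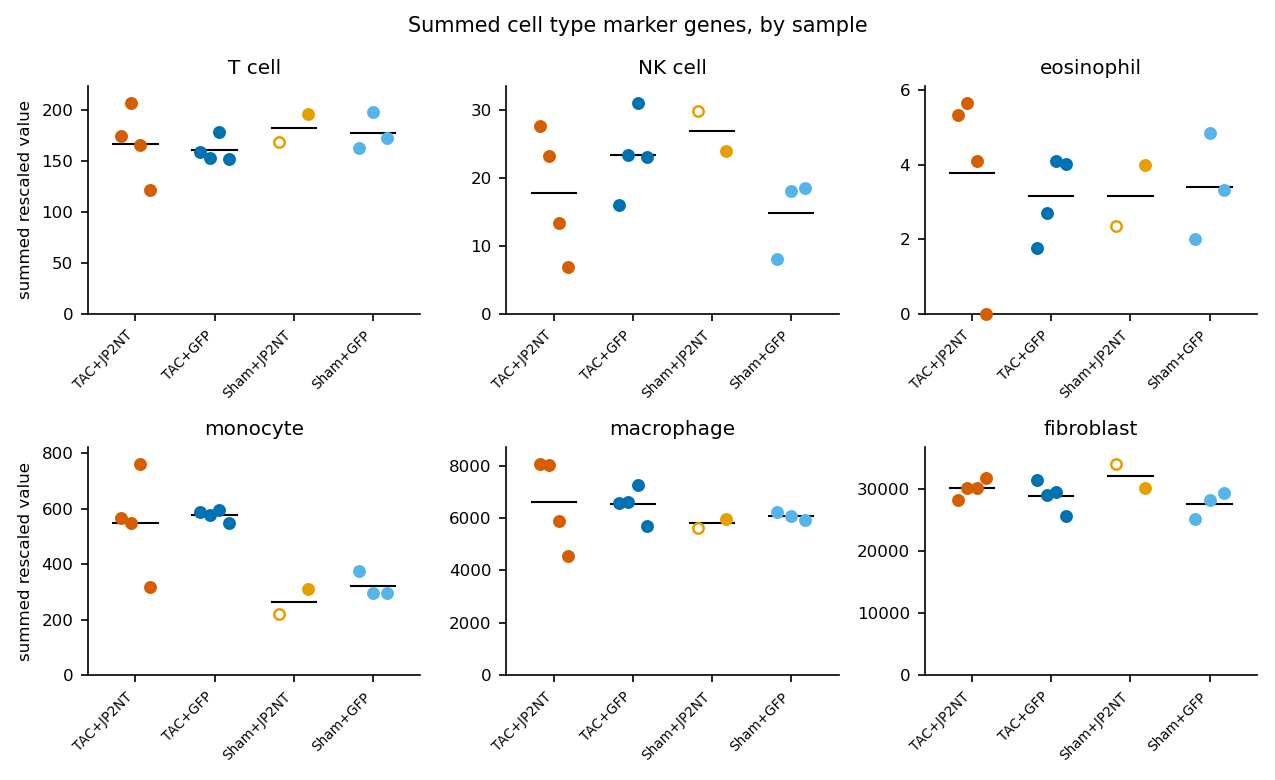
Summed rescaled value of the listed marker genes of 6 cell types in each sample (linear axes from 0), with a bar at the group mean and the mean of Sham+JP2NT replicates 1 and 2 as an open circle. T cell sums overlap in all 4 groups, and monocyte sums are 548 to 597 in TAC+GFP and 294 to 377 in Sham+GFP. Vcan makes up most of the monocyte sums in the GFP groups.

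Cxcl16, which encodes the ligand of CXCR6, was higher in TAC+GFP, with values of 151, 164, 229 and 176 in TAC+GFP and 93.5, 119 and 107 in Sham+GFP. All 4 TAC+GFP libraries lay above all 3 Sham+GFP libraries. Its log2 fold change was 0.74 ± 0.162 (SE; 1.68-fold; 95% interval 0.40 to 1.09; adjusted p = 0.00167), and it was called in all 25 alternative settings. With JP2NT the values were 150, 162, 140 and 105 in TAC+JP2NT and 133, 113 and 141 in Sham+JP2NT, which overlap (log2 fold change 0.06, 95% interval -0.33 to 0.45, adjusted p = 0.836). Between TAC+JP2NT and TAC+GFP the log2 difference was -0.37 (95% interval -0.69 to -0.05, adjusted p = 0.155), and the difference between the TAC responses under JP2NT and GFP was -0.69 (95% interval -1.21 to -0.16, adjusted p = 0.304). Neither passed the threshold. The second of these includes a sham difference: Sham+JP2NT was 0.32 higher than Sham+GFP on the log2 scale, which was not called.

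Zmynd15, whose exons overlap those of Cxcl16, shares 522 of the 2819 31-base stretches of Cxcl16 transcripts, 18.5%. It had values of 12.97 to 22.8 in TAC+JP2NT, 17.5 to 24.4 in TAC+GFP, 19.9 and 22.3 in Sham+JP2NT and 14.4 to 25.5 in Sham+GFP, with a log2 fold change of 0.05 in TAC+GFP against Sham+GFP (adjusted p = 0.895). Adam10, which encodes the protease that releases CXCL16 from the membrane, was higher in both TAC comparisons. Its values were 470 to 644 in TAC+JP2NT and 410 and 442 in Sham+JP2NT (log2 fold change 0.44, adjusted p = 0.0118), and 536 to 680 in TAC+GFP and 376 to 395 in Sham+GFP (0.62, adjusted p = 0.000239). The values of Adam17, a related protease, were 490 to 590 in TAC+JP2NT and 412 and 461 in Sham+JP2NT (log2 fold change 0.33, adjusted p = 0.0178), and 441 to 499 in TAC+GFP and 463 to 521 in Sham+GFP (-0.07, adjusted p = 0.504).

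Ccl8, which encodes a ligand of the mouse CCR8 receptor, was highest in TAC+GFP. Its values were 31.7, 26.7, 27.9 and 14.7 in TAC+JP2NT and 45.6, 59.9, 138 and 46.6 in TAC+GFP, against 17.3, 9.34 and 4.02 in Sham+JP2NT and 5.07, 8.53 and 11.7 in Sham+GFP. TAC+GFP replicate 3 stood far above the other TAC+GFP libraries, yet all 4 TAC+GFP libraries lay above every TAC+JP2NT library. As a description of what chose the gene, the log2 fold change was 2.87 in TAC+GFP against Sham+GFP and 1.58 in TAC+JP2NT against Sham+JP2NT. The ratio of summed reads was 8.26 (95% interval 5.53 to 12.9, counting error only) for 299 reads in TAC+GFP against 26 in Sham+GFP, and 2.49 (1.61 to 4.01) for 115 reads in TAC+JP2NT against 25 in Sham+JP2NT.

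Between TAC+JP2NT and TAC+GFP the log2 difference of Ccl8 was -1.38 (95% interval -2.25 to -0.51), 2.61-fold lower in TAC+JP2NT, and missed the threshold with an adjusted p of 0.0587. Adjusted p was 0.0349 to 0.139 over 25 alternative settings, 5 of which called it, among them the settings without TAC+GFP replicate 4 (0.0479) and without Sham+JP2NT replicate 1 (0.0456) or 3 (0.0484). Without TAC+GFP replicate 3 the difference was -1.02 (adjusted p = 0.122). This comparison, too, reuses TAC+GFP libraries that chose the gene.

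Ccl11, the eotaxin gene, was nearly absent in TAC+GFP and was higher with JP2NT among TAC hearts. Its values were 28.5, 28.4, 6.11 and 12.7 in TAC+JP2NT replicates 1 to 4 and 1.77, 1.80, 2.08 and 2.01 in TAC+GFP. In sham hearts they were 41.4, 39.2 and 42.7 in Sham+JP2NT and 45.2, 38.3 and 42.3 in Sham+GFP. The TAC+JP2NT libraries lay between the other groups without overlap, replicates 1 and 2 nearest to the shams and replicate 3 nearest to TAC+GFP. Each TAC+GFP library held about 2 estimated reads, 8 in all.

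As a description of what chose the gene, Ccl11 averaged 1.91 ± 0.153 (SD, n = 4) in TAC+GFP and 41.9 ± 3.49 (n = 3) in Sham+GFP, lower by a ratio of summed reads of 22.3 (95% interval 11 to 52.7, counting error only). In TAC+JP2NT it averaged 18.9 ± 11.3 (n = 4), against 41.5 ± 1.70 (n = 2) in Sham+JP2NT, lower by 2.03 (1.51 to 2.72). Between vectors in TAC hearts the log2 difference was 2.55 ± 0.381 (SE; 95% interval 1.74 to 3.36; adjusted p = 0.00277), higher in TAC+JP2NT. The value added before taking logs shrinks this difference at so low a level, and the ratio of summed reads, 91 in TAC+JP2NT against 8 in TAC+GFP, was 10.6 (5.17 to 25.4). The call held in all 25 alternative settings, with adjusted p from 0.000178 to 0.0403. As for Cxcr6, these fits reuse TAC+GFP libraries that chose the gene and are not independent of that choice. Sham+JP2NT and Sham+GFP differed by -0.01 on the log2 scale (95% interval -1.06 to 1.04).

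Eosinophil markers were near 0 in all groups. None of the 8 was abundant enough to test, and their sum was 0 to 5.67 in TAC+JP2NT, 1.78 to 4.10 in TAC+GFP, 2.36 and 3.98 in Sham+JP2NT and 1.995 to 4.86 in Sham+GFP. Of the defining genes, Epx, eosinophil peroxidase, was listed at 0 in TAC+GFP, Sham+JP2NT and Sham+GFP and reached 1.05 in TAC+JP2NT, and Siglecf reached at most 0.704 in TAC+JP2NT and 1.00 in Sham+GFP. Fibroblasts are a known source of CCL11, and their markers had a sum of 28192 to 31742 in TAC+JP2NT, 25616 to 31439 in TAC+GFP, 30166 and 33903 in Sham+JP2NT and 25060 to 29294 in Sham+GFP. Of 12 fibroblast markers tested, 6 were called higher and 3 lower in TAC+GFP against Sham+GFP, where 23.1% and 25.2% of all genes were. In TAC+JP2NT against TAC+GFP 1 was called higher and 1 lower, where 2.7% and 3.5% of all genes were. Gsn, the largest part of the sum in the GFP groups, averaged 11562 in TAC+GFP and 15825 in Sham+GFP. In the same groups Col1a1 averaged 2935 and 1443, so the sum hides changes in both directions. The part of fibroblasts in the Ccl11 difference was not tested.

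Ccl2 and Ccl7, the genes of the main CCR2 ligands, did not pass the test in any of the 5 comparisons. Ccl2 had 51.1, 56.2, 43.8 and 11.7 in TAC+JP2NT and 31.2, 18.7, 44.9 and 26.2 in TAC+GFP, against 19.96, 16.1 and 23.9 in Sham+JP2NT and 31.1, 34.5 and 20.8 in Sham+GFP. Ccl7 had 67.1, 53.4, 28.4 and 6.83 in TAC+JP2NT and 17.8, 16.9, 34.3 and 12.1 in TAC+GFP, against 19.97, 18.5 and 12.0 in Sham+JP2NT and 44.9, 25.1 and 19.0 in Sham+GFP. In both genes TAC+JP2NT replicates 1 and 2 were the highest of the 14 libraries and replicate 4 the lowest. The log2 fold change of TAC+GFP against Sham+GFP was 0.03 (95% interval -0.90 to 0.97) for Ccl2 and -0.54 (-1.79 to 0.72) for Ccl7, intervals that span 0 widely.

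In the TAC comparison under JP2NT, the calls of the pair changed when replicate 4 of TAC+JP2NT was left out. With all 4 libraries the log2 fold change against Sham+JP2NT was 0.73 (95% interval -0.33 to 1.79, adjusted p = 0.285) for Ccl2 and 0.91 (-0.51 to 2.33, adjusted p = 0.321) for Ccl7. Without TAC+JP2NT replicate 4 it was 1.23 (adjusted p = 0.00834) for Ccl2 and 1.56 (adjusted p = 0.015) for Ccl7, both then called higher. Ccl12, their neighbour, had 42.5, 43.2, 18.4 and 3.903 in TAC+JP2NT, 10.8 to 23.6 in TAC+GFP, 4.01 and 8.43 in Sham+JP2NT and 3.02 to 9.98 in Sham+GFP. Its order of TAC+JP2NT libraries was close to that of Ccl7, and it was not called (log2 fold change 1.37 and adjusted p = 0.0897 in TAC+GFP against Sham+GFP).

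Ccl6 and Ccl9 are neighbouring genes of CCR1 ligands, of which Ccl6 was called lower in TAC+GFP and Ccl9 was called in no comparison. Ccl6 had 141, 186, 219 and 192 in TAC+GFP and 347, 287 and 220 in Sham+GFP, and its highest TAC+GFP library lay just under its lowest Sham+GFP library. It fell by 0.62 on the log2 scale in TAC+GFP (95% interval -1.09 to -0.15, 1.53-fold lower, adjusted p = 0.031). The call was lost without TAC+GFP replicate 1 (adjusted p = 0.09) or 2 (0.0512) and without Sham+GFP replicate 1 (0.148) or 2 (0.0831). Under JP2NT, Ccl6 had 263, 241, 165 and 151 in TAC+JP2NT and 148, 143 and 225 in Sham+JP2NT, with a log2 fold change of 0.14 (95% interval -0.39 to 0.67). The log2 difference between Sham+JP2NT and Sham+GFP was -0.63 (95% interval -1.19 to -0.07, adjusted p = 0.997), about as large as the TAC difference under GFP.

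Ccl9 had 309, 241, 188 and 146 in TAC+JP2NT and 111, 86.3 and 170 in Sham+JP2NT, and only TAC+JP2NT replicate 4 fell within the sham range. The log2 fold change was 0.71 (95% interval 0.10 to 1.33, adjusted p = 0.0696), which was not called. Without TAC+JP2NT replicate 4 it was 0.89 (adjusted p = 0.0174), without Sham+JP2NT replicate 3 it was 1.10 (adjusted p = 0.0494), and without TAC+GFP replicate 3, which is in neither of these groups, adjusted p was 0.0465. Under GFP the values were 165, 181, 297 and 197 in TAC+GFP and 226, 174 and 164 in Sham+GFP, with a log2 fold change of 0.13 (95% interval -0.41 to 0.67, adjusted p = 0.685). Macrophages, a known source of both chemokines, had 18 of 18 listed markers tested. Of these, 1 was called higher and 6 lower in TAC+GFP against Sham+GFP, where 23.1% and 25.2% of all genes were. In TAC+JP2NT against Sham+JP2NT 0 were called higher and 0 lower, where 15.4% and 16.8% of all genes were. The macrophage sum was 4555 to 8053 in TAC+JP2NT, highest in replicates 1 and 2 and lowest in replicate 4 as for Ccl2, Ccl7 and Ccl9, 5709 to 7283 in TAC+GFP, 5618 and 5983 in Sham+JP2NT and 5936 to 6236 in Sham+GFP. Lyz2, the largest part of the sum in the GFP groups, averaged 2234 in TAC+GFP and 1768 in Sham+GFP. In the same groups Csf1r averaged 489 and 645, so the sum hides differences in both directions. The part of macrophages in these chemokine values was not tested.

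Cxcl12, the gene of the CXCR4 ligand, was lower after TAC with both vectors. It had 2207, 1829, 3670 and 1819 in TAC+GFP and 3882, 3889 and 3640 in Sham+GFP. TAC+GFP replicate 3 lay within the Sham+GFP range and the other 3 TAC+GFP libraries lay far below it. Cxcl12 fell by 0.74 on the log2 scale (95% interval -1.11 to -0.37, 1.67-fold lower, adjusted p = 0.00297). It was called in all 25 alternative settings, with log2 fold changes of -0.97 to -0.63 and adjusted p from 1.46e-06 to 0.0139. With JP2NT it had 2200, 2329, 2178 and 2473 in TAC+JP2NT and 3293, 3418 and 3582 in Sham+JP2NT, without overlap. There it fell by 0.60 (95% interval -1.02 to -0.17, 1.51-fold lower, adjusted p = 0.0325). That call was lost without Sham+JP2NT replicate 3 (adjusted p = 0.179) and without TAC+JP2NT replicate 1 (0.0631), 2 (0.0518) or 3 (0.0587), with log2 fold changes of -0.60 to -0.55. Between TAC+JP2NT and TAC+GFP the difference was 0.01 (95% interval -0.34 to 0.35).

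Cxcl14, a chemokine of resting tissue, did not pass the test in any comparison. It had 188, 199, 137 and 107 in TAC+JP2NT and 200, 237, 188 and 182 in TAC+GFP, against 205, 195 and 212 in Sham+JP2NT and 206, 180 and 207 in Sham+GFP. TAC+JP2NT replicates 3 and 4 were the lowest of the 14 libraries. The log2 fold change was 0.02 (95% interval -0.35 to 0.40) in TAC+GFP against Sham+GFP, -0.42 (-0.84 to -0.003, adjusted p = 0.115) in TAC+JP2NT against Sham+JP2NT and -0.39 (-0.73 to -0.04, adjusted p = 0.169) in TAC+JP2NT against TAC+GFP. Without TAC+JP2NT replicate 2 the second of these was -0.55 and called (adjusted p = 0.0438).

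**Figure D3:**
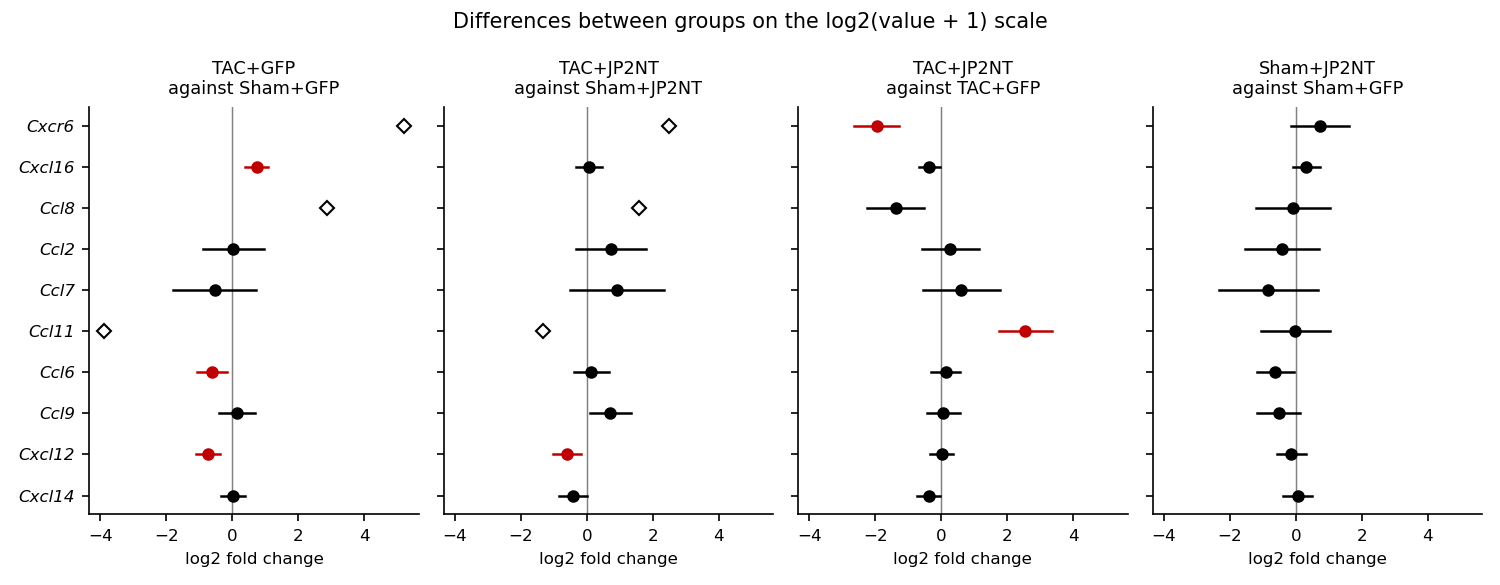
Log2 fold changes of the 10 genes on the log2(value + 1) scale in 4 comparisons; lines are 95% intervals of limma, red marks an adjusted p under 0.05, and open diamonds are the picked genes, given without interval or test where the comparison chose them. In TAC+JP2NT against TAC+GFP, Cxcr6 lies at -1.96 and Ccl11 at 2.55, and no gene is red in Sham+JP2NT against Sham+GFP. For the picked genes, TAC+JP2NT against TAC+GFP is not independent of how they were chosen, since it shares the TAC+GFP libraries.

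Besides Cxcr6, Ccr2 was the 1 gene called among the receptors that these chemokines signal through. Ccr2, the receptor of CCL2 and CCL7, was higher in TAC+GFP, with 36.2, 43.2, 70.8 and 47.1 in TAC+GFP and 27.6, 23.8 and 36.0 in Sham+GFP (log2 fold change 0.72, 95% interval 0.15 to 1.29, adjusted p = 0.0365). It had 26.2 to 53.8 in TAC+JP2NT and 35.8 and 36.0 in Sham+JP2NT (0.12, adjusted p = 0.794). All 4 monocyte markers abundant enough to test, of 8 listed and Ccr2 among them, were called higher in TAC+GFP against Sham+GFP, where 23.1% of all genes were. In TAC+JP2NT against Sham+JP2NT 1 of the 4 was called higher, where 15.4% of all genes were. The summed value of the 8 listed markers was 319 to 760 in TAC+JP2NT, 548 to 597 in TAC+GFP, 219 and 311 in Sham+JP2NT and 294 to 377 in Sham+GFP. Vcan made up most of this sum in the GFP groups, with a mean of 484 in TAC+GFP and 273 in Sham+GFP. The sum therefore says little of the low markers. Ccr1, the receptor of CCL6 and CCL9, had 59.5, 71.7, 23.2 and 6.80 in TAC+JP2NT, 31.4 to 61.6 in TAC+GFP, 13.4 and 16.3 in Sham+JP2NT and 13.1 to 21.4 in Sham+GFP. It was not called (log2 fold change 1.23 and adjusted p = 0.0863 in TAC+GFP against Sham+GFP), and its TAC+JP2NT replicates 1 and 2 were high and replicate 4 low, as for Ccl2 and Ccl7.

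Cxcr4, the receptor of CXCL12, was lowest within TAC+GFP in the library whose Cxcl12 was highest. It had 195, 198, 65.2 and 182 in TAC+GFP and 94.3, 69.3 and 101 in Sham+GFP, so that replicate 3, whose Cxcl12 was at the sham level, had a Cxcr4 value below every sham sample. The log2 fold change was 0.74 (95% interval 0.05 to 1.43, adjusted p = 0.0715). In TAC+JP2NT it had 90.1, 91.7, 156 and 86.4, against 88.2 and 95.6 in Sham+JP2NT (0.16, adjusted p = 0.773). Ackr3, the scavenging receptor of CXCL12, had 813 to 1319 in TAC+JP2NT, 910 to 1146 in TAC+GFP, 1131 and 1267 in Sham+JP2NT and 1110 to 1167 in Sham+GFP, and was not called. Ccr8, the mouse CCL8 receptor, was listed at 0 in every library, and Ccr3, the CCL11 receptor, was listed at 0 in all but 2 of the 13 samples and reached 1.80.

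Ackr2, which takes up and degrades inflammatory CC chemokines, had 71.0, 76.1, 69.7 and 54.4 in TAC+GFP and 56.9, 20.1 and 30.4 in Sham+GFP (log2 fold change 1.02, 95% interval 0.42 to 1.62, adjusted p = 0.00783). Sham+GFP replicate 1 lay within the TAC+GFP range. In TAC+JP2NT it had 37.8, 42.2, 40.4 and 26.7, below every TAC+GFP library, with a log2 difference from TAC+GFP of -0.88 (95% interval -1.43 to -0.32) that missed the threshold (adjusted p = 0.061). Ackr4, a scavenger of CCL19 and CCL21, was higher after TAC with both vectors, by 0.94 in TAC+GFP (adjusted p = 0.00116) and by 0.85 in TAC+JP2NT (adjusted p = 0.00971). Ackr1 was too low to test, with 0.986 to 6.22 in TAC+JP2NT, 1.76, 5.42, 16.4 and 1.99 in TAC+GFP, 2.66 and 3.48 in Sham+JP2NT and 0 to 4.22 in Sham+GFP. Dpp4, which encodes a protease that trims CXCL12 and CCL11, had 34.9 to 49.7 in TAC+JP2NT, 30.2 to 58.7 in TAC+GFP, 50.5 and 58.6 in Sham+JP2NT and 38.5 to 48.0 in Sham+GFP, and was not called.

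**Figure D4:**
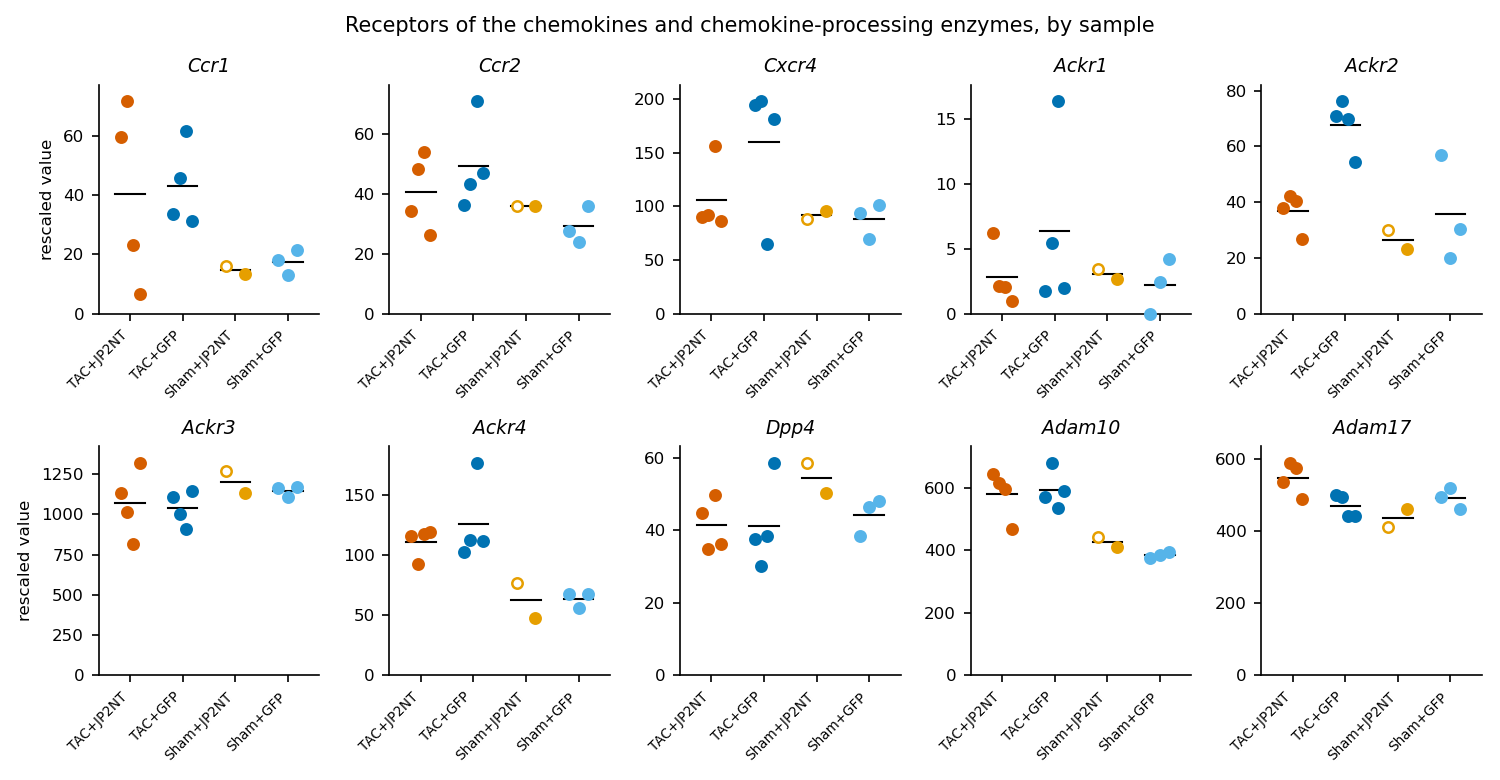
Rescaled values (linear axes from 0) of 7 chemokine receptor genes and of Dpp4, Adam10 and Adam17 in each sample, with a bar at the group mean and the mean of Sham+JP2NT replicates 1 and 2 as an open circle. Cxcr4 is at 65.2 in TAC+GFP replicate 3, where the 3 remaining TAC+GFP libraries have 182 to 198, and Ackr2 in all 4 TAC+GFP libraries lies above all 4 TAC+JP2NT libraries.

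Most other chemokine genes were too low to test. Of 31 other chemokine ligand genes, 12 were abundant enough to test, and 3 were called higher and none lower in TAC+GFP against Sham+GFP, against 23.1% and 25.2% of all genes, with a median log2 fold change of 0.30 over the 12 and -0.01 over all genes tested. The 3 were Cx3cl1, the membrane-bound ligand of CX3CR1 (0.89, adjusted p = 0.00456), Ccl27a (0.64, adjusted p = 0.0199) and Ccl21a, a lymphatic chemokine (0.54, adjusted p = 0.00595). Ccl21a and Ccl27a have near-identical copies in the mouse genome between which reads can be split, so their values are uncertain. Of 18 other receptor genes 5 were tested and Ccr2 alone was called. Among 5 atypical receptor genes, 4 tested, Ackr2 and Ackr4 were called higher and Ccrl2 lower (-0.54, adjusted p = 0.00651). Of 10 tested genes of chemokine processing and binding, 4 were called higher, Adam10, the gelatinase gene Mmp2 (0.65, adjusted p = 0.000184) and the heparan sulphate carriers Sdc1 (0.57, adjusted p = 0.00325) and Sdc4 (0.71, adjusted p = 0.00103), and 2 lower, Hspg2 (-0.47, adjusted p = 0.00104) and Ndst1 (-0.26, adjusted p = 0.014).

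Of 20 tested genes of the NF-kappaB and AP-1 pathways, which drive many chemokine genes, 7 were called higher and none lower in TAC+GFP against Sham+GFP (median log2 fold change 0.18), where 23.1% of all genes were called higher, and 3 higher and none lower in TAC+JP2NT against Sham+JP2NT (median 0.31), where 15.4% of all genes were. Against Sham+JP2NT, TAC+JP2NT had no other ligand or other receptor called, Ackr4 was called higher and Ccrl2 lower (-0.64, adjusted p = 0.00856), and Adam10 and Adam17 were called higher. Between TAC+JP2NT and TAC+GFP none of the genes of these 5 lists was called, against 6.21% of all genes.

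The tested genes whose log2 values over the 13 samples were most like those of the 3 picked genes were found by Pearson correlation, as a description. For Cxcr6 they were Mapre1 (r = 0.985), Jpt1 (0.979), Dnase1l1 (0.979), Nupr1 (0.978) and Eif4a1 (0.977), none of them a chemokine or lymphocyte marker gene. For Ccl8 they were Pnp (0.968), Evi5 (0.965), Ctsk (0.954), 1810058I24Rik (0.95) and Ddx50 (0.942). For Ccl11 they were Tmem65 (0.982), Reep5 (0.977), Lclat1 (0.974), Phf2 (0.962) and Gal3st3 (0.962). The samples share surgery groups, and any gene that separates these groups in the same order has a high r.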

How the data were processed

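RNA sequencing of polyadenylated RNA gave 1 table of the whole series, with 14 libraries in 4 groups. Per the submitters' processing notes, FastQC 1.0.0, STAR 2.6.1a and Salmon were used with build mm10. The annotation and strand setting used are not stated. Each deposited value is a signal that the authors made by dividing a gene count by a scale factor, separately in the 7 GFP and 7 JP2NT libraries, as the values show (median-of-ratios factors 1.03 to 1.036 and 0.972 to 0.976). The commonest low value was taken as 1 read. With it, 1.11 to 2.85% of values lay within 0.001 of a whole number, so whole reads cannot be recovered. No count model entered the tests. Intervals from reads treat rounded sums of estimated reads as binomial counts and cover counting error only. They are no test of the picked genes.

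Of 24972 names, 26 had become dates and 2 occurred more than once. Values were rescaled over all libraries by unweighted trimmed means of M-values (30% and 5% trimmed), 1 was added and log2 taken. Genes at 10 or more in at least 3 samples were tested with limma-trend (limma 3.58.1, R 4.3.3), with 4 group means, 1 spread, and 9 residual and 5.7 prior degrees of freedom. Fold changes are on the log2(value + 1) scale, which understates those of low genes. Simulated data checked the fit. The 10 genes, the lists and the tests were chosen with earlier results of these data known. Named genes are the 10, their receptors, Adam10, Adam17, Dpp4, genes of the chemokine lists called in TAC+GFP against Sham+GFP or TAC+JP2NT against TAC+GFP, and the 5 most correlated genes of each picked gene; Ccl12, Fyco1 and Zmynd15 stand beside results as neighbours. The values of 1 receptor gene are not reported here. There were 25 alternatives: other scalings, values added, filters, spreads and sample groupings, a replicate block, and each replicate left out.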

Additional observations from a re-analysis of the deposited data

Results flagged for a closer look

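Ccl8 in TAC+GFP replicate 3 stood apart from the rest of its group. Its value was 138.5. On the linear scale, the gap to the next TAC+GFP library was 0.846 of the whole range of the group. That is above the 95% critical value of Dixon's test for 4 samples. On the log2 scale of the fits, replicate 3 had 7.12, the next library 5.93 and the lowest 5.54. There the gap is a smaller share of the range, so the flag applies to linear values. In all, 20 sets of 4 libraries were examined (10 genes in TAC+JP2NT and in TAC+GFP), and chance alone marks about 1 in 20. In the same library Cxcl12 was 3670, within the Sham+GFP range, Cxcr4 was 65.2, below every sham sample, and Ackr1 was 16.4, the highest of all samples.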

How the results depend on the processing

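Of the 7 genes not picked for TAC, 1 was called lower in TAC+GFP against Sham+GFP when the closest TAC pairs were averaged and 1 with the replicate block, and 1 to 2 over the fits that left out 1 library each. In TAC+JP2NT against Sham+JP2NT, 1 was called higher with a spread weighted per group, 1 with 14 separate libraries, 3 with the replicate block, and 0 to 3 with 1 library left out; 0 were called lower with the closest TAC pairs averaged and 0 to 1 with 1 library left out. In TAC+JP2NT against TAC+GFP, 2 of the 10 were called lower with the values as deposited, 2 with 5 added before logs, and 1 to 2 with 1 library left out. The causes were not tested. No called fold change of the 10 genes, and no fold change of a picked gene between TAC and sham, changed sign in any alternative. Some log2 fold changes near 0 that were not called did: Ccl2 (-0.18 to 0.31), Ccl9 (-0.04 to 0.27) and Cxcl14 (-0.06 to 0.13) in TAC+GFP against Sham+GFP, Cxcl16 (-0.02 to 0.19) in TAC+JP2NT against Sham+JP2NT, Ccl2, Ccl6, Ccl9 and Cxcl12 in TAC+JP2NT against TAC+GFP, and Ccl8, Ccl11 and Cxcl14 in Sham+JP2NT against Sham+GFP. The genes called over all genes ranged from 157 to 1417 in TAC+JP2NT against TAC+GFP (820 as reported; 157 with only the compared groups, 158 with the closest TAC pairs averaged, 1417 as deposited), from 1897 (without Sham+JP2NT replicate 3) to 5546 in TAC+JP2NT against Sham+JP2NT, from 5195 to 7000 in TAC+GFP against Sham+GFP, and from 0 to 111 for the interaction, for which a fit of only the compared groups gives no value.

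Replicate numbers did not pair the samples: deviations of 19 same-number pairs correlated at -0.171 to 0.0765, and 1 of 14 libraries correlated best with its own number. With the replicate block, Ccl2 (1.07, adjusted p = 0.0381), Ccl7 (1.23, adjusted p = 0.0338) and Ccl9 were called higher in TAC+JP2NT against Sham+JP2NT and the Ccl6 call in TAC+GFP was lost (adjusted p = 0.0674). At 1 to 4 reads per sham library for Cxcr6 and 2 per TAC+GFP library for Ccl11, depth limits their fold changes: with 5 added before logs, TAC+GFP against Sham+GFP gave 3.91 in place of 5.19 for Cxcr6 and -2.76 in place of -3.88 for Ccl11.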
